A study of Mus musculus with 4 samples.

Results

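The genes described here encode the proteins of the cytosolic ribosome. They were taken by symbol: Rpl or Rps followed by digits, with at most 1 of the suffix letters a, l, x and y, plus the stalk genes Rplp0, Rplp1 and Rplp2 and the laminin-binding small subunit gene Rpsa. Only probe sets annotated with 1 symbol were used, and a gene was represented by its brightest probe set, which gave 46 genes of the 18193 on the array. Of these, 43 had a signal over the floor on all 4 arrays, 22 of the large and 21 of the small subunit. The floor was the median of all signals (89.8, or 6.49 on the log2 scale).

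The 4 arrays came from mouse primary intestinal epithelial cells, cultured from crypts on fibronectin and held for 6 h with IL-17A at 50 ng/ml, with FGF2 at 5 ng/ml, with both at those doses, or left untreated. IL-17A is an inflammatory cytokine and FGF2 a growth factor that acts through receptor tyrosine kinases, and the series asks how they cooperate in repair of the epithelium. Each group was 1 array, so no difference has a replicate check, no p-value was computed, and the number of arrays limits the precision. Strain, age and the number of animals were not given in the sources used here.

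Ribosomal protein genes are transcribed at high and closely matched rates, because each protein is needed in about equal numbers to build a ribosome. Their mRNAs begin with a run of pyrimidines, the terminal oligopyrimidine tract, through which growth factor signalling by way of mTORC1 controls their translation, largely without a change in mRNA level. In the intestinal crypt, where cells divide rapidly, ribosome production is a major part of biosynthesis. A probe set signal measures mRNA and says nothing of translation.

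The cells carried the markers of their label and of others. All 10 epithelial markers were over the floor on all 4 arrays, as were all 7 fibroblast and all 5 endothelial markers, while of 6 leukocyte markers Cd3e, Cd79a and Itgam were under it on every array. Summed epithelial signals were 147892 with IL-17A, 152441 with FGF2 and 153234 with both, against 144597 in untreated cells. Summed fibroblast signals were 56722 with IL-17A, 41311 with FGF2 and 43755 with both, against 53325 in untreated cells. Summed endothelial signals were 4282, 6574 and 7006 in the same order, against 4474 in untreated cells. The part of this shift in cell markers in the values that follow was not tested. In a bulk culture, fewer cells of a type and less RNA per cell cannot be told apart.

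The start of a ribosomal protein gene carries the letters by which this gene class is known, and 6 windows are shown to let the pyrimidine run be seen beside genes that lack it there. The sequences are from RefSeq (build GRCm38.p6), each with 40 bases before the annotated start and 20 from it. Capitals mark the run of C and T that covers the start base, and the motif CTTCCGG or its reverse complement, the core bound by ETS-family factors. Rpl38, Rpl7a and Rplp2 were bright genes with higher signals on all stimulated arrays, Rps27 and Rpl37 are dimmer genes with lower ones, and Rps27l is the bright gene with the smallest ratio on the combined array. This choice was made after their values were seen. The windows lie at chr11:114668540-114668599 (Rpl38, plus strand), chr2:26910767-26910826 (Rpl7a, plus), chr7:141447611-141447670 (Rplp2, plus), chr3:90213629-90213688 (Rps27, minus), chr15:5116573-5116632 (Rpl37, plus) and chr9:66946046-66946105 (Rps27l, plus).
Rpl38: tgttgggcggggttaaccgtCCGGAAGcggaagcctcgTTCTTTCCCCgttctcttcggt
Rpl7a: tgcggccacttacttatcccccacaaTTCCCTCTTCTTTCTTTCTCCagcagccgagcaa
Rplp2: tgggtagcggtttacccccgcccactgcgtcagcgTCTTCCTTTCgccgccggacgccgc
Rps27: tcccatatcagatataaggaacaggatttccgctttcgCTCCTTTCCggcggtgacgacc
Rpl37: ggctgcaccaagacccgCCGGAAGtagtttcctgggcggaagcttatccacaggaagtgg
Rps27l: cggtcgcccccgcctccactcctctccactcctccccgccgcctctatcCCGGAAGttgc

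The run spans 21 bases in Rpl7a, 10 in Rpl38 and Rplp2, and 9 in Rps27, while in Rpl37 and Rps27l the annotated start base is not in such a run. Promoter windows of 300 bases were found for 40 of the 46 genes. A run of at least 8 C or T over the start base was present in 12 of the 40 (30%), against 4.59% of all 27025 genes with a window. CTTCCGG, searched on both strands, was in 20 of the 40 (50%), against 9.93% of all genes. GGGCGG, the core letters of the site of Sp1, was in 55% against 38.2%, CTTTTC in 27.5% against 24.3%, and TATAAA in 12.5% against 15.7%. All were searched on both strands, and CTTTTC can lie inside a C and T run. Annotated starts often differ from the base used in a tissue by a few positions, and a match of letters is a description, not a bound site. Genes with and without the run lay in both brightness groups: 8 of the 29 bright genes with a window had it.

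The ribosomal protein genes divided by signal into 34 bright genes, with mean log2 signals over 12, and 9 dimmer ones. The level also depends on the probe set: those of Rpl41 had means from 8.37 to 14.37, and those of Rps24 from 9.30 to 14.39. Each dimmer gene had only 1 single-symbol probe set over the floor, and how well these report their genes was not tested. The bright genes were among the brightest on the array, with 22 among the top 50 genes and 26 among the top 100. Of the 100 brightest probe sets, 57 carried an Rpl or Rps symbol. The genes used here, each by its brightest single-symbol probe set, made up 3.33% of the summed signal of all genes in untreated cells. With IL-17A it was 3.60%, with FGF2 3.55% and with both 3.80%. Genes with no single-symbol probe set are missing from that share. Probe sets with any Rpl or Rps symbol held 8.26%, 8.23% and 8.82% of all probe set signal in the same order, against 7.71% untreated. Rpl39l, Rpl3l and Rps16 stayed under the floor on every array and gave no ratio. Rpl39l, a testis-rich paralog of Rpl39, had signals of 28.1, 34.3 and 25.7 with IL-17A, FGF2 and both, against 9.92 in untreated cells. Rpl3l, the paralog of muscle, had at most 17.9 on any array. The small subunit gene Rps16 had at most 22.8, in the only probe set with its symbol alone.

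On the deposited scale the bright genes were slightly and evenly higher on the stimulated arrays, most with both factors. The median log2 ratio against untreated cells over the 34 bright genes was 0.13 with IL-17A, 0.13 with FGF2 and 0.25 with both (1.19-fold). For all 43 genes the medians were 0.12, 0.12 and 0.25, beside −0.01, −0.01 and 0.00 over all 10902 genes over the floor. The combined array had the highest of the 4 signals for all 34 bright genes and for 36 of 43 in all. It was also highest for 29.1% of all genes and for 62.4% of the 173 brightest genes outside the class. Quantile normalization took most of the rise in the class medians away, as described further on, and all 3 comparisons rest on the same untreated array.

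**Figure D1:**
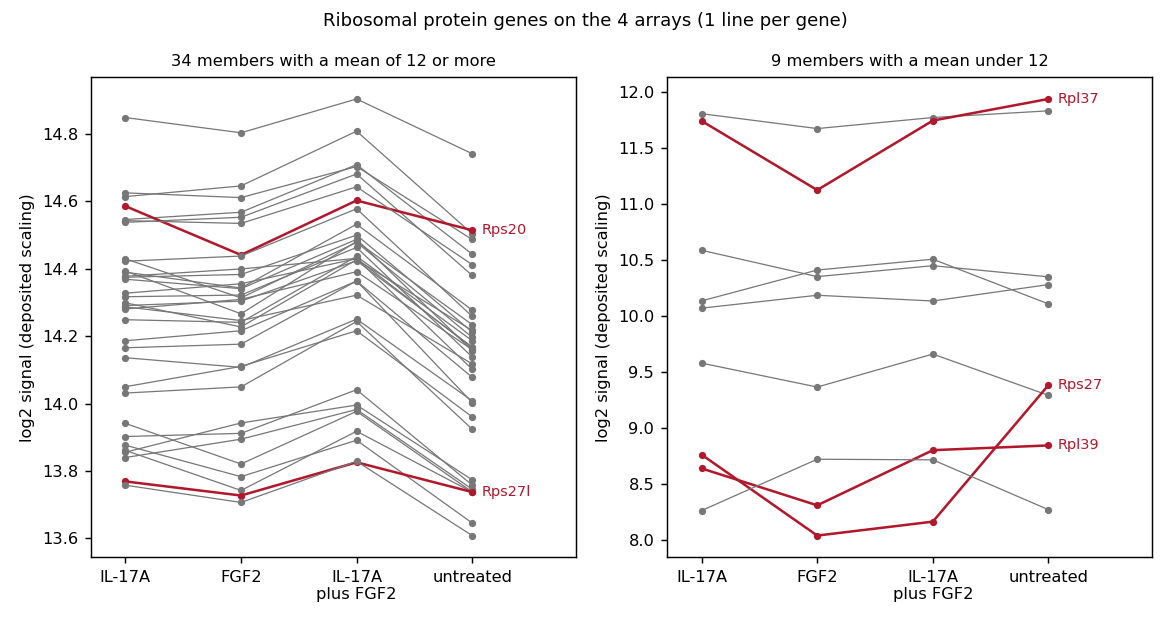
Log2 signal (deposited scaling, vertical axis) of the 43 ribosomal protein genes over the floor on the 4 arrays (horizontal axis), 1 line per gene. The bright genes move up together on the combined array, while Rps27 and Rpl37 among the dimmer genes lie lower on the FGF2 array than on the untreated array.

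Among bright large subunit genes, Rpl38, which in mouse is needed for translation of a subset of Hox mRNAs, had signals of 25086 with IL-17A, 25642 with FGF2 and 28703 with both, against 23234 in untreated cells. Its log2 ratios were 0.11, 0.14 and 0.30. The stalk genes encode the base and the acidic tip of the arm that recruits elongation factors. Rplp0, the base, had 21291, 21614 and 22088 on the stimulated arrays in the same order, against 18368 untreated (0.21, 0.23 and 0.27). Rplp2, an acidic tip protein, had 23928, 24290 and 26789, against 22284 (0.10, 0.12 and 0.27). The stimulated arrays were all above the untreated array for these 3 genes, but Rplp0 differed little between them and Rplp2 was set apart on the combined array. No probe set carried the symbol Rplp1 alone.

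Some large subunit proteins also have roles outside the ribosome. Rpl11, which with 5S rRNA binds Mdm2 and stabilises p53, had signals of 15037, 14094 and 15192, against 12812 untreated, with log2 ratios of 0.23, 0.14 and 0.25. Rpl22, an RNA-binding protein needed for T cell development in mouse, had 19994, 19435 and 20479, against 17777. Rpl13a, known in human cells for silencing inflammatory transcripts after release from the ribosome, had 25281, 25033 and 26689, against 22966. In the probe sets used, all stimulated arrays were above the untreated array for these 3 genes, and the combined signal was at most 1.06-fold that with IL-17A. Other probe sets differed. Those of Rpl13a had log2 ratios of 0.21, 0.25 and 0.18 for both against IL-17A, beside 0.08 in the one used. Those of Rpl22 had 0.20 and −0.23, beside 0.03, and the latter, with a mean log2 signal of 8.41, lay below untreated on all stimulated arrays.

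Of the bright genes, Rpsa, the laminin receptor precursor of the small subunit, had the highest ratio with both factors: 18376 with IL-17A, 18514 with FGF2 and 21086 with both, against 16419 untreated, a 1.28-fold difference for both. Rps4x, on the X chromosome, had 20561, 20965 and 22077, against 17582 (log2 0.23, 0.25 and 0.33). Rps14 had the largest bright-gene ratio with IL-17A alone, with 22069 there, 20363 with FGF2 and 22831 with both, against 18776 (0.23, 0.12 and 0.28). Rps3, which also acts in DNA repair, was at 0.08, 0.17 and 0.22. Rps19, the gene most often mutated in human Diamond-Blackfan anaemia, was at 0.14, 0.15 and 0.28. Subunits did not stand apart: the 17 large and 17 small subunit bright genes had combined medians of 0.26 and 0.25.

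Rps29, the brightest, had 29518, 28606 and 30670, against 27402 in untreated cells, a small spread for its brightness. Rps20 and the p53-responsive paralog Rps27l were the bright genes that did not lie above untreated on every stimulated array. Rps20 had 24597 with IL-17A, 22245 with FGF2 and 24886 with both, against 23406 untreated (log2 0.07, −0.07 and 0.09). Rps27l had 13956, 13557 and 14516, against 13654 (0.03, −0.01 and 0.09). The untreated array was thus the lowest of the 4 for 32 of 34 bright genes, against 25.7% of all genes. The share was 46.1% of the other genes with mean log2 signals of 12 or more, but the 34 bright genes all had means over 13.7. Among the 173 brightest genes outside the class it was 67.1%, so much of this pattern was shared by genes of like brightness.

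By count, 18 of 43 genes were at least 1.1-fold higher with IL-17A than in untreated cells, against 18.7% of all genes, and 4 were at least 1.1-fold lower, against 24.4%. With FGF2 the counts were 18 higher, against 26% of all genes, and 4 lower, against 30.5%. With both they were 35 higher, against 29.5%, and 3 lower, against 31.2%. Under quantile normalization 2, 2 and 4 genes were at least 1.1-fold higher with IL-17A, FGF2 and both, against 19.1%, 26.6% and 31% of all genes. At any size, 37 of 43 were higher with IL-17A, against 46.4% of all genes, 36 with FGF2, against 48.5%, and 38 with both, against 50.8%. Under quantile normalization the genes above and below 0 were 22 and 17 for IL-17A, 24 and 15 for FGF2 and 29 and 12 for both, the rest being at 0. That method gives equal ranks equal values, which can hold the brightest genes near 0. Rps29, the brightest of the class, was at 0 in each comparison. With 25% more signal as the threshold, 0, 1 and 7 genes were higher with IL-17A, FGF2 and both, against 5.26%, 8.9% and 10.9% of all genes. No ribosomal protein gene was 2-fold higher than in untreated cells, against 0.33%, 0.477% and 0.908% of all genes. Rps27 was the only one 2-fold lower, with FGF2 and with both, against 0.816% and 1.56%, and with IL-17A there was none, against 0.156%.

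The comparisons of both factors with each factor alone gave similar sizes. Both against IL-17A had a median log2 ratio of 0.11, with 17 of 43 genes at least 1.1-fold higher, against 27.8% of all genes, and 2 lower, against 27.2%. Both against FGF2 had a median of 0.13, with 20 at least 1.1-fold higher, against 23%, and 0 lower, against 22.6%. At any size 40 were higher in the first, against 52.3%, and 41 in the second, against 51.3%. With 25% more signal as the threshold 2 were higher in each, against 9.79% and 7.12%, and none was 2-fold higher, against 0.541% and 0.367%. Rpl10a was the highest bright gene in the first (0.21) and Rps7 in the second (0.21). All 34 bright genes were higher in each of them. Among genes outside the class, 82.3% and 90.3% were higher at mean log2 signals of 14 or more. From 13 to 14 it was 68.4% and 74.1%, so much of this was shared by genes of like brightness. Each factor thus had 2 readings, from array pairs with no array in common. For the 34 bright genes the IL-17A medians were 0.13 with FGF2 present and 0.13 without it, and the FGF2 medians 0.12 with IL-17A present and 0.13 without. In any 1 gene the gap between the 2 readings is the same for either factor, so these are not separate agreements. Under quantile normalization the medians of the 43 genes were 0.01 for both against IL-17A and 0.03 for both against FGF2. Then 3 and 4 genes were at least 1.1-fold higher, against 29.6% and 25% of all genes.

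Across the 34 bright genes Pearson's r between the 2 readings of a factor was −0.14 for IL-17A and 0.35 for FGF2. These genes share the 4 arrays and related probe sequences. Over all 43 Pearson's r was −0.21 and 0.75, and over all 10902 genes 0.38 and 0.61. By ranks (Spearman) it was 0.03 and 0.55 over the 43, and 0.21 and 0.50 over all genes. The interaction, the log2 signal on the combined array minus those on the IL-17A and FGF2 arrays plus that on the untreated array, had a median of 0.00 over the 43 genes. Read as error, with true interaction included in it, it put the SD of 1 ratio at 0.05 for bright genes. This spread over genes holds no difference common to a whole array, so it is no error of the class median. The SD of the ratios among the bright genes was 0.05 for IL-17A, 0.07 for FGF2 and 0.06 for both. Rplp0 had the lowest interaction among them (−0.18) and Rpl37a the highest (0.13).

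**Figure D2:**
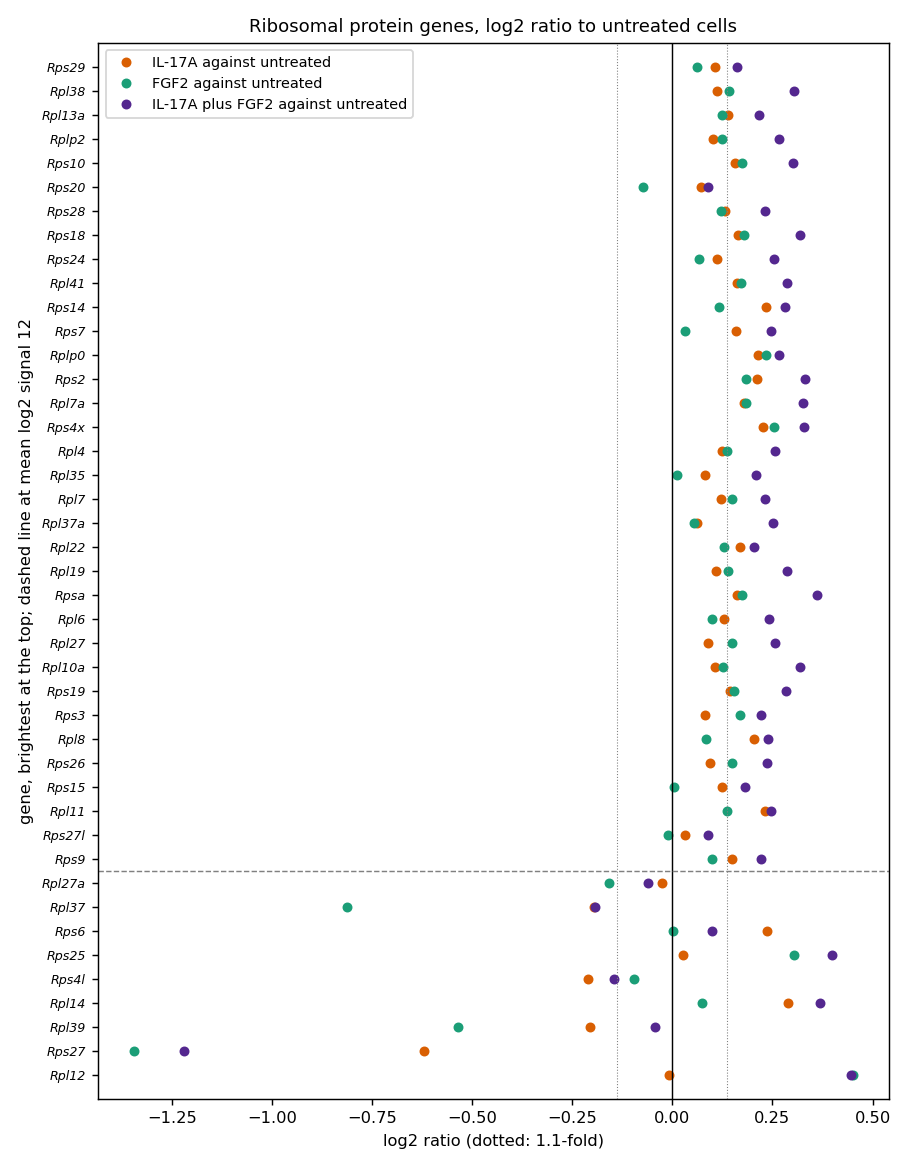
Log2 ratio of each stimulated array to the untreated array (horizontal axis, deposited scaling) for the 43 genes, ordered by mean signal with the brightest at the top. Bright genes lie between −0.07 and 0.36, and the dimmer genes spread from −1.34 to 0.45.

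The 9 dimmer genes had no common direction, with medians of −0.03 for IL-17A, −0.10 for FGF2 and −0.04 for both against untreated. Rps27, a zinc finger protein of the small subunit and the parent of Rps27l, had signals of 434 with IL-17A, 263 with FGF2 and 286 with both, against 667 in untreated cells. It was 1.54-, 2.54- and 2.33-fold lower, and both FGF2 arrays were below the other arrays. Its log2 ratios with FGF2 ranged from −1.39 to −1.25 over 9 settings of scaling and summary. With 1 probe set, only the scalings could change this ratio, so the narrow range is no check of the value. Rpl37, a zinc-binding large subunit protein, had 3423, 2232 and 3431, against 3923, so the FGF2 array alone stood low (1.76-fold lower). Rpl39, which lines the exit tunnel, had 398, 317 and 446, against 459, and was again lowest with FGF2. Each of these 3 genes had a single probe set. The interaction had an SD of 0.29 over other genes with mean log2 signals of 8 to 10, the class of Rps27 and Rpl39, and of 0.18 from 10 to 12, the class of Rpl37.

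Other dimmer genes were higher. Rpl12 had 307 with IL-17A, 421 with FGF2 and 420 with both, against 308 untreated, which put both FGF2 arrays at 1.37- and 1.36-fold. Rps25, needed for translation from some viral and cellular internal entry sites, had 1123, 1360 and 1454, against 1103, in the same pattern. Rpl14 had 764, 659 and 808, against 626, and was highest where IL-17A was present. Rps6, the substrate of S6 kinases, had 1537, 1306 and 1397, against 1304, with IL-17A alone at 1.18-fold higher. Rpl27a and Rps4l, an autosomal relative of Rps4x, lay below untreated on all stimulated arrays, by at most 0.16 and 0.21 on the log2 scale. With Rpl37, Rpl39 and Rps27, they made up 5 of 43 genes with the untreated array highest, against 29.1% of all genes.

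Bright genes outside the class moved in the same direction against untreated cells, with smaller medians at mean log2 signals of 13 or more. Among genes with mean log2 signals of 14 or more, the combined against untreated median was 0.26 for 26 ribosomal protein genes and 0.19 for 62 others. From 13 to 14 it was 0.23 for 8 and 0.13 for 297 others. Those 8 all had means over 13.7, so they were not matched to the others in brightness. The part of unequal brightness in the gaps was not tested. From 12 to 13, where no ribosomal protein gene lay, it was 0.08 over 710 genes, and under 8 it was −0.09 over 2051. For IL-17A at 14 or more the medians were 0.13 and 0.10, and for FGF2 0.13 and 0.10. Of the bright control probe sets, with IL-17A, FGF2 and both against untreated, Actb was at 0.13, 0.20 and 0.23 and Gapdh at 0.16, 0.21 and 0.26. Those for 18S rRNA were higher too, but in another order, at 0.39, 0.29 and 0.24.

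**Figure D3:**
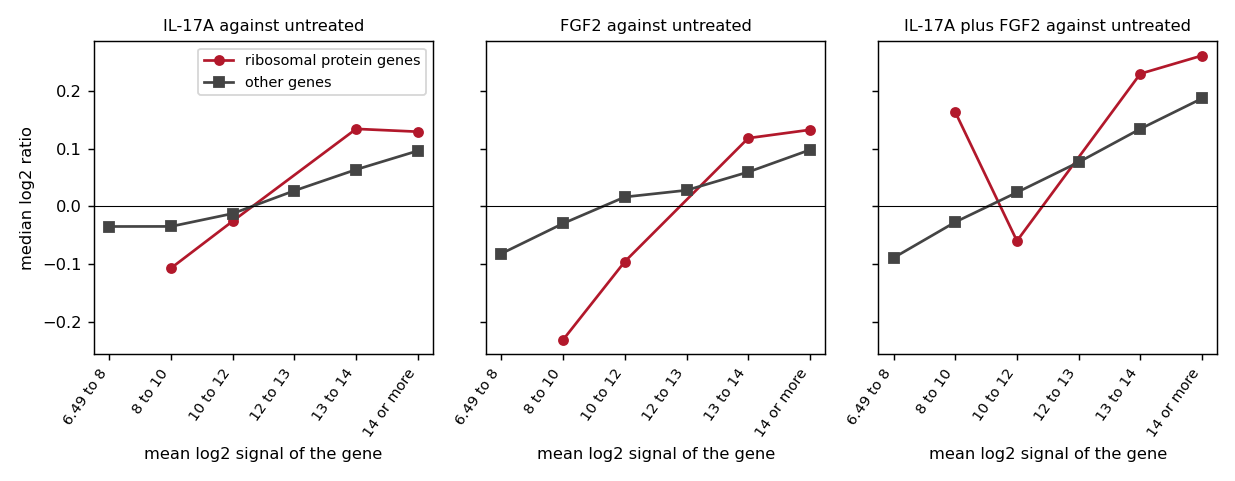
Median log2 ratio to the untreated array (vertical axis, deposited scaling) by class of mean log2 signal (horizontal axis) for ribosomal protein genes and all other genes, 1 panel per stimulated array. In the other genes the median climbs with brightness, to 0.19 at 14 or more on the combined array, where ribosomal protein genes are at 0.26.

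The arrays themselves differed in the spread of their signals. The combined array lay below the untreated array by 0.16 log2 units at the median of all probe sets, about level with it at the 90th percentile (0.02), and above it by 0.13 at the 99th. At the signal that the top 0.1% of probe sets exceed, the combined array was above it by 0.25, the IL-17A array by 0.15 and the FGF2 array by 0.13. Quantile normalization, which gives every array the same distribution, set the medians of the 43 genes to 0.00, 0.01 and 0.03 for IL-17A, FGF2 and both. Fitted without the ribosomal protein genes it gave 0.01, 0.01 and 0.04, and fitted without any of the 228 probe sets with an Rpl or Rps symbol 0.02, 0.02 and 0.05. In the fit without the ribosomal protein genes, Actb was at 0.02, 0.08 and 0.00 and Gapdh at 0.05, 0.10 and 0.05, while 18S rRNA was at 0.35, 0.25 and 0.14. Spikes added before hybridization differed from the untreated array by 0.14 with IL-17A, −0.14 with FGF2 and 0.14 with both, and poly-A spikes added to the RNA by 0.52, −0.16 and 0.45. The part of such differences in the values of the ribosomal protein genes was not tested.

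Other scalings moved the class either way. Centring each array on its median raised the ratio of all genes by 0.15 to a median of 0.16 for both against untreated, and by 0.12 to 0.13 for both against IL-17A. The class medians were then 0.40 and 0.23. Set against those medians of all genes, the class stood 0.24 and 0.10 higher. Centring on bright genes outside the class left 0.08, 0.08 and 0.14 for IL-17A, FGF2 and both, beside a median of all genes of −0.10 for both. No scaling changed the direction of Rps27 or Rpl37 against untreated.

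**Figure D4:**
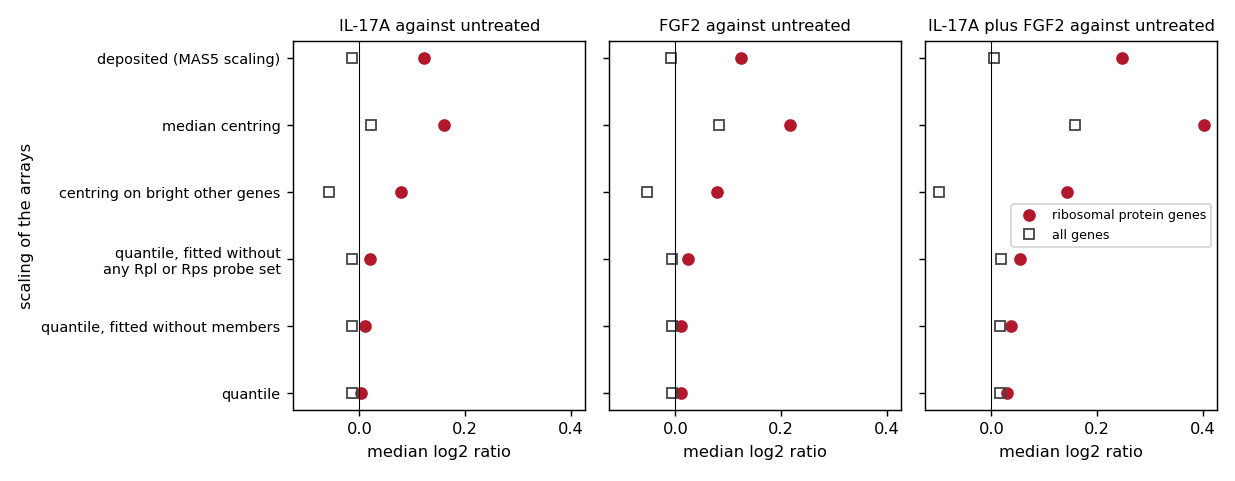
Median log2 ratio to the untreated array (horizontal axis) of the 43 ribosomal protein genes and of all genes under each scaling of the arrays (vertical axis), 1 panel per stimulated array. With both factors the class median runs from 0.40 with median centring, through 0.25 as deposited, to 0.03 with quantile normalization.

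The probe sets limit how finely genes can be told apart. Of the 43 used, 31 (72.1%) carry a suffix that marks possible detection of related transcripts, against 27.5% of all genes, and processed pseudogenes of this class are numerous. Among the bright genes it was 30 of 34, and among the dimmer ones 1 of 9. Where a gene had several probe sets over the floor (19 genes, 60 probe sets), all of them were higher with both factors than in untreated cells for 18 genes, with IL-17A for 15 and with FGF2 for 11. The same share over all genes with several probe sets was not computed. By 1 probe set each, 93.5%, 90.3% and 79.0% of the 62 other genes with means of 14 or more were higher in those comparisons. The pooled within-gene SD was 0.11. The 110 probe sets with an Rpl or Rps symbol and others beside it were left out, and the 98 over the floor had medians of 0.13, 0.13 and 0.26 for IL-17A, FGF2 and both.

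Genes that work with the ribosome fell into separate patterns. Translation factors (28 of 32 listed found) had medians of 0.10, 0.13 and 0.17 for IL-17A, FGF2 and both, and 0.04, 0.07 and 0.08 under quantile normalization. Tpt1, whose mRNA also has a terminal pyrimidine run, had 24172, 24705 and 26580, against 20367 untreated, and Eef1a1, the elongation factor that delivers tRNA, 26526, 26587 and 28359, against 24246. Ribosome biogenesis genes (39 of 40 found) had medians of 0.07, 0.19 and 0.25, and 11, 26 and 27 of them were at least 1.1-fold higher. These counts stand beside 18.7%, 26% and 29.5% of all genes. Under quantile normalization the list's medians were 0.09, 0.18 and 0.24. Of its 39 genes, 34 had mean log2 signals from 8 to 12, where the array distributions differ less than at the level of the bright ribosomal protein genes, so the contrast between the lists cannot be told apart from their brightness.

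Within ribosome biogenesis, Mybbp1a, a nucleolar Myb-binding protein, had signals of 2904, 3439 and 3774, against 2485 untreated (log2 0.22, 0.47 and 0.60). Nhp2, of the pseudouridylation complex, had 4456, 5364 and 5846, against 3942 (0.18, 0.44 and 0.57). Fbl, the methyltransferase fibrillarin, had 3257, 5115 and 4739, against 3534, and was higher on both FGF2 arrays. Rrp9 went the other way with both factors, at 90.8 against 305 untreated, next to the floor. FGF2 arrays thus held the higher values of Fbl and Nhp2, while ribosomal protein genes had equal medians with either factor alone. Proliferation markers (4 found) had medians of 0.00 with IL-17A, 0.34 with FGF2 and 0.42 with both, and their part in the biogenesis values was not tested.

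**Figure D5:**
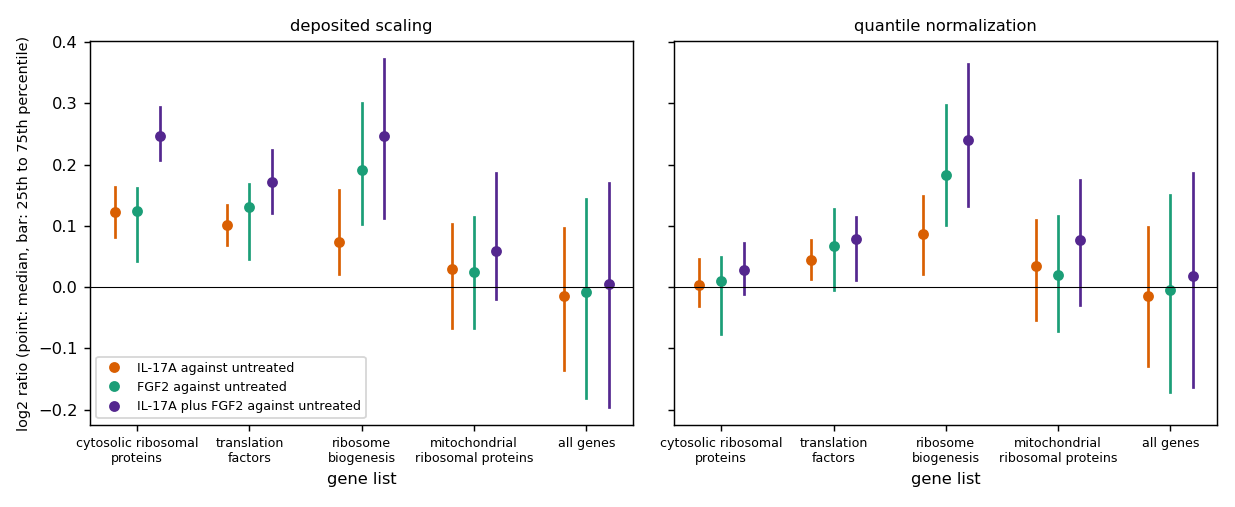
Log2 ratio to the untreated array (vertical axis; points are medians, bars run from the 25th to the 75th percentile of genes) for ribosomal protein genes and lists of related genes, as deposited and after quantile normalization. The ribosome biogenesis median with both factors is 0.25 as deposited and 0.24 after quantile normalization, and that of ribosomal protein genes 0.25 and 0.03.

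Mitochondrial ribosomal protein genes, which serve the separate ribosome of that organelle, were near the level of all genes, with medians over 76 genes of 0.03, 0.02 and 0.06. Of the ribosomal genes outside the symbol rule, Fau, which encodes a fusion with the small subunit protein eS30, had 17907, 17952 and 18862, against 16228 untreated. Rpl22l1, the paralog of Rpl22, had 9989, 11543 and 13213, against 9394, a log2 ratio of 0.49 with both factors, beside 0.20 for Rpl22. Rpl7l1 was at 0.03, 0.16 and 0.17.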

How the data were processed

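RNA from 4 cultures was hybridised to 1 Affymetrix 3′ expression array each. The authors deposited a log2 signal for every probe set on every array, which they made with MAS5, per the submitters' processing notes (no version was listed). MAS5 scales an array by 1 factor: the 2% trimmed mean of the antilog signal was 500 on every array. The 64 control probe sets were kept out of gene values and floor. Symbols came from the platform annotation, which gives 1 symbol for 34945 of 45101 probe sets, several for 932 and none for 9160. All 46 ribosomal protein genes matched the GRCm38.p6 gene table by Entrez identifier, and 0 symbols changed.

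Ratios are differences of log2 signals for the 10902 genes over the floor on all 4 arrays. A gene was called at a fold of at least 1.1. Named genes were any ribosomal protein gene and members of the fixed lists of translation factors, ribosome biogenesis, mitochondrial ribosomal proteins and relatives outside the symbol rule. The members and lists were chosen with earlier results of these data known. Alternatives were 4 further scalings planned and 1 added (quantile normalization fitted without any ribosomal protein probe set), the mean of a gene's probe sets, only those probe sets with no suffix for related transcripts, other floors and folds, and, also added, probe sets with several symbols. Calculations used Python 3.11.15, numpy 2.4.6, pandas 2.3.3 and scipy 1.17.1, and were tested on simulated arrays.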

Additional observations from a re-analysis of the deposited data

Results flagged for a closer look

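Rpl37 and Rpl39 had effects of a factor with opposite signs depending on the other factor, in array pairs with no array in common. For Rpl37 the log2 ratio for IL-17A was 0.62 with FGF2 present and −0.20 without it. For Rpl39 it was 0.49 with FGF2 present and −0.21 without it, and the ratio for FGF2 was 0.16 with IL-17A present and −0.54 without it. Both genes had their lowest signal on the FGF2 array, and Rpl39 was also lower on the IL-17A array than on the combined and untreated arrays. The flag asked for at least 1.1-fold in both pairs, and its share over all genes was not computed. At any size, the IL-17A ratios had opposite signs in 4 of the 43 genes, against 4619 of all 10902. For FGF2 it was 6 of 43, against 3473 of 10902, so opposite signs were common on these arrays. With 1 array a group the differences were not tested.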

How the results depend on the processing

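With 1 array a group, no spread between replicates bears on these values. No paired analysis was possible because each group held 1 array. For 12 results that answer a comparison, 97 of 159 alternative values stayed within 0.11 log2 units, or 1.5 times a count, and 62 moved; the cause was not tested. Comparisons are listed as IL-17A, FGF2 and both against untreated, then both against IL-17A and against FGF2, and counts are of 43 genes at least 1.1-fold higher. Under quantile normalization the 5 medians were 0.0034, 0.010, 0.029, 0.011 and 0.031. The last 2 were 0.11 and 0.13 as deposited, so a median could fall near 0 and still count as within 0.11 log2 units. The counts were 2, 2, 4, 3 and 4, against 19.1%, 26.6%, 31%, 29.6% and 25% of all genes, and 16 genes were higher on all 3 stimulated arrays. Fitted without the ribosomal protein genes, the medians were 0.011, 0.010, 0.037, −7.06e-05 and 0.039. The counts were 2, 2, 4, 3 and 4, against 19.1%, 26.6%, 31.1%, 29.7% and 25% of all genes, and 19 genes were higher on all 3. Fitted without any Rpl or Rps probe set, the medians were 0.020, 0.024, 0.054, 0.0081 and 0.043. The counts were 2, 2, 4, 3 and 4, against 19.1%, 26.5%, 31.1%, 29.8% and 25% of all genes, and 20 genes were higher on all 3. As deposited, 25.7% of all genes were higher on all 3, and that share was not computed under the other settings. Median centring gave medians of 0.40 for both against untreated and 0.23 for both against IL-17A, and counts of 29, 32, 37 and 39 outside both against untreated, where the count moved by less than 1.5 times. The shares of all genes called in those 4 comparisons were 24.2%, 40.7%, 48.7% and 34.7%. Centring on bright genes outside the class gave 8, 6, 3 and 5 there, against 13.3%, 20%, 19.9% and 15.4% of all genes. With suffixed probe sets left out, 18 genes were left, with counts of 7, 10, 11, 10 and 6, and 11 higher on all 3. The shares of all genes called with those probe sets left out were not computed. At any size the counts were 37, 36, 40 and 41 (both against untreated apart), with 25% more signal as the threshold 0, 1, 7, 2 and 2, and at 2-fold 0 in all 5. With probe sets of several symbols added, 141 features gave 60, 61, 121, 60 and 63, and 116 higher on all 3. No share over all genes was computed for that setting.

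Of 1795 gene values under alternatives, 27 called ones changed sign. For both against untreated under quantile normalization these were Rpl13a (−0.015), Rps7 (−0.016), Rpl35 (−0.037), Rpl7 (−0.0065), Rpl22 (−0.037) and Rps15 (−0.022). Fitted without the class they were Rps29 (−0.10), Rpl13a (−0.026, and −0.015 with IL-17A), Rps7 (−0.014), Rpl35 (−0.028), Rpl22 (−0.036) and Rps15 (−0.020). Without any Rpl or Rps probe set in the fit they were Rps29 (−0.10), Rpl13a (−0.013, and −0.0057 with IL-17A), Rps7 (−0.0065), Rpl22 (−0.024) and Rps15 (−0.0094). Median centring turned Rps4l to 0.0090. The mean of all probe sets, which took in those not over the floor, turned Rps18 (−0.074) and Rpl37a (−0.086) for both against FGF2. It turned Rps4x (−0.10) and Rps3 (−0.16) for both against untreated, and Rps3 (−0.53) and Rpl27a (0.27) for FGF2. In Rps4x and Rpl27a only the probe set used was over the floor. The Rps3 probe sets over the floor were at 0.17 and 0.17 for FGF2, and at 0.22 and 0.12 for both. Those of Rps18 were at 0.14, 0.15 and 0.19 for both against FGF2. Every Rpl37a probe set was over the floor, and those not used were at 0.05 and −0.50 for both against FGF2. With suffixed probe sets left out Rps3 was at −0.084 for both against IL-17A.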
